A study of Mus musculus with 4 samples.

Results

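The genes described here are 10 members of the MHC class II antigen presentation pathway of the mouse, H2-Aa, H2-Ab1, H2-Eb1, Cd74, Ciita, H2-DMa, H2-DMb1, H2-DMb2, H2-Oa and H2-Ob. The rule names them and uses no measured value, though earlier results of these data were known when they were chosen. All 10 were found among 50686 gene identifiers counted in the hip and 54838 counted in the knee. Counts were scaled to the same total in every library (CPM), and members were compared as log2 ratios within the hip pair and within the knee pair. Of the 10 members, 8 lie within 252 kb on chromosome 17 (chr17:34092379-34344645 in RefSeq annotation GRCm38.p6), Ciita lies on chromosome 16 (chr16:10480014-10531064) and Cd74 on chromosome 18. H2-Ab1, Ciita and Cd74 have no promoter window in the table used here.

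Poly-A RNA labelled as articular cartilage was sequenced from 2 joints of mice in which Cbfb, the non-DNA-binding partner of the Runx transcription factors, had been targeted, with 1 library per condition and joint. By their labels all 4 libraries came from mice carrying floxed Cbfb alleles. The paper gives the mice of these libraries as male. The hip control was labelled Cbfb f/f without Cre and with no treatment, whereas the paper's methods describe injected mice and its results wild-type ones, and the other hip library was from tamoxifen-injected Cbfb f/f;Col2a1-CreERT mice, both given as 6 weeks old in one place of the paper and as older in another. The knee control was from oil-injected Cbfb f/f;Aggrecan-CreERT mice, and the other knee library was from mice of that genotype injected with tamoxifen, both 12 weeks old. Tamoxifen was given at 75 mg/kg per day for 5 days. Both Cre lines are driven by cartilage genes and are active once tamoxifen is given. The cells in which recombination took place were not measured in these libraries. By their labels the hip libraries differ from each other in Cre and in tamoxifen as well as in Cbfb, and these cannot be told apart. The paper gives a general group size for its mice, but how many mice entered each library, and their strain, are not given in the sources used here.

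MHC class II molecules are paired alpha and beta chains that carry peptides of engulfed proteins to the surface of B cells, dendritic cells and macrophages, where helper T cells read them. The chains fold on the invariant chain encoded by Cd74, a fragment of which stays in the groove until H2-DM removes it, while H2-O restrains H2-DM. Ciita, a coactivator that binds no DNA itself, switches the set on together with the RFX, CREB and NF-Y factors, which sit on short promoter boxes, and interferon gamma induces Ciita in cells that do not otherwise make class II.

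RefSeq promoter windows of GRCm38.p6, from 250 bases before to 50 bases after each start, were held for 7 members in 8 windows, and the search took in exact matches on both strands. GATTGG, the core of the Y box on which NF-Y sits, was present in all 7 members with a window and in 16.1% of all 32851 windows. ACNGATG, the core of the X1 box on which RFX sits, was present in 5 of the 7 members and in 9.85% of all windows. CCAAT, of which GATTGG holds the reverse complement, was in 37.4% of all windows. The promoters of H2-Eb1, H2-DMb1 and H2-DMb2 held ACNGATG followed by GATTGG on the same strand with 10 to 40 bases between, an arrangement found in 0.107% of all windows. The stretches from 130 to 25 bases before the start are shown for 5 members, with GATTGG, its reverse complement CCAATC and ACNGATG in capitals. Each of them holds GATTGG, and those of H2-Eb1, H2-DMb1 and H2-DMb2 hold ACNGATG as well.
H2-Eb1, chr17:34305737-34305842, plus strand: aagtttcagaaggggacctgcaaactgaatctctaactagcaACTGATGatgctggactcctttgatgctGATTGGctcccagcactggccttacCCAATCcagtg
H2-DMb1, chr17:34153061-34153166, plus strand: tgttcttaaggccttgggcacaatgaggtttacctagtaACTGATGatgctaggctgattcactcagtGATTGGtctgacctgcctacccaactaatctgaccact
H2-DMb2, chr17:34145119-34145224, plus strand: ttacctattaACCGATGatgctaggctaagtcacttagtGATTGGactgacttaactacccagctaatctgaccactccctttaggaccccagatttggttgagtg
H2-Ob, chr17:34238775-34238880, plus strand: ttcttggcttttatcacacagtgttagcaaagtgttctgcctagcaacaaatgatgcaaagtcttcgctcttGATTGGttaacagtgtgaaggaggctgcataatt
H2-Aa, chr17:34287848-34287953, minus strand: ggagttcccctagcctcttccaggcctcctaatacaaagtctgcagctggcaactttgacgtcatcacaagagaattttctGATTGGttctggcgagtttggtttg
In these stretches GATTGG lay 60 bases before the start in H2-Eb1, 62 in H2-DMb1, 91 in H2-DMb2, 58 in H2-Ob and 49 in H2-Aa. It lay 44 bases before the start of H2-Oa and 199 before the second start of H2-DMa. Between ACNGATG and GATTGG there were 22 bases in both H2-DMb1 and H2-DMb2 and 21 in H2-Eb1. The match is of letters in the reference and was not set against binding data.

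Counts on genes ranged from 34264456 to 38473120 per library, and the 3 counts taken as the floor equal 0.0780 to 0.0876 CPM. Cbfb itself had 2548 counts in the hip control and 2946 in the hip library labelled Cbfb-deficient, and 3796 and 4572 in the knee, with log2 ratios of 0.41 and -0.071. Once the trend over length and GC was taken out, the hip value turned to -0.28 (-0.35 to -0.20) and the knee value was -0.0023 (-0.065 to 0.060). The sign of the hip value thus depends on the processing, and a loss of single exons cannot be read from gene totals. Skeletal muscle genes made up 147642 and 139846 CPM of the hip libraries against 8773 and 20921 CPM of the knee libraries, summed over 8 genes. Within the hip pair these genes moved both ways, with log2 ratios from -1.97 for Mb to 1.27 for Myh4. The summed level of 8 chondrocyte genes was 162 and 69.9 CPM in the hip and 4010 and 1931 CPM in the knee, so the hip libraries held little cartilage RNA by their defining genes. With 1 library per condition in each joint, no test was possible within a joint, and values there have no replicate error. Intervals below are 95% intervals that cover counting error only.

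In the hip, most class II genes were lower in the library labelled Cbfb-deficient than in the control. In bulk RNA fewer cells of a type and less RNA per cell cannot be told apart. Summed over the 10 members there were 5799 counts in the control library, which is 150.7 CPM, and 1066 counts in the library labelled Cbfb-deficient, which is 30.8 CPM. After TMM scaling within the pair the summed log2 ratio was -2.25 (-2.34 to -2.15), or 21.1% of the control. In the knee the sums were 33164 and 36211 counts, which are 967.9 and 947.2 CPM, with a log2 ratio of -0.21 (-0.23 to -0.19), or 86.3% of the control. The knee value is thus far smaller than the hip value, and the difference between the joints was not tested.

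A gene was called lower or higher where its log2 ratio reached 1 in either direction, its counting interval left out 0 and its counts summed over both libraries came to 10 or more. All 10 members passed the count limit in both joints. In the hip 8 of 10 members were called lower, where 16.3% of 19856 genes were called lower, and 0 were called higher, where 20.2% were. The median log2 ratio over the members was -2.09, and over all genes of the hip pair it was 0.014. In the knee 0 of 10 members were called lower, where 6.81% of 21131 genes were, and 0 were called higher, where 9% were. The median over the members there was -0.17, beside 0.019 over all genes. In the knee 8 members had an interval that lay wholly below 0, as 29.7% of all genes did, and Ciita had an interval above 0, as 31.9% did.

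A test of condition over all 4 libraries was possible with joint as a block, which leaves 1 residual degree of freedom and treats the joints as repeats of one comparison. By edgeR's quasi-likelihood test 0 of 10 members passed an adjusted p of 0.05 in either direction, as did 0 of all 17594 genes tested, and by DESeq2 0 members did, with 22 genes (0.13%) lower and 24 (0.142%) higher. At an unadjusted p under 0.05 edgeR had 5 members lower, H2-Ab1, H2-Eb1, Cd74, H2-DMa and H2-DMb1, where 2.39% of all genes were lower, and DESeq2 had these and H2-DMb2, where 2.68% of all genes were lower. The edgeR log2 ratio over both joints was -1.45 for H2-Ab1 and -1.42 for Cd74, each with an adjusted p of 0.82. The hip values given here are differences between 2 libraries, and the members did not pass this test across the joints. A change in a single joint counts as error in such a test, so it cannot decide on the hip values.

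**Figure D1:**
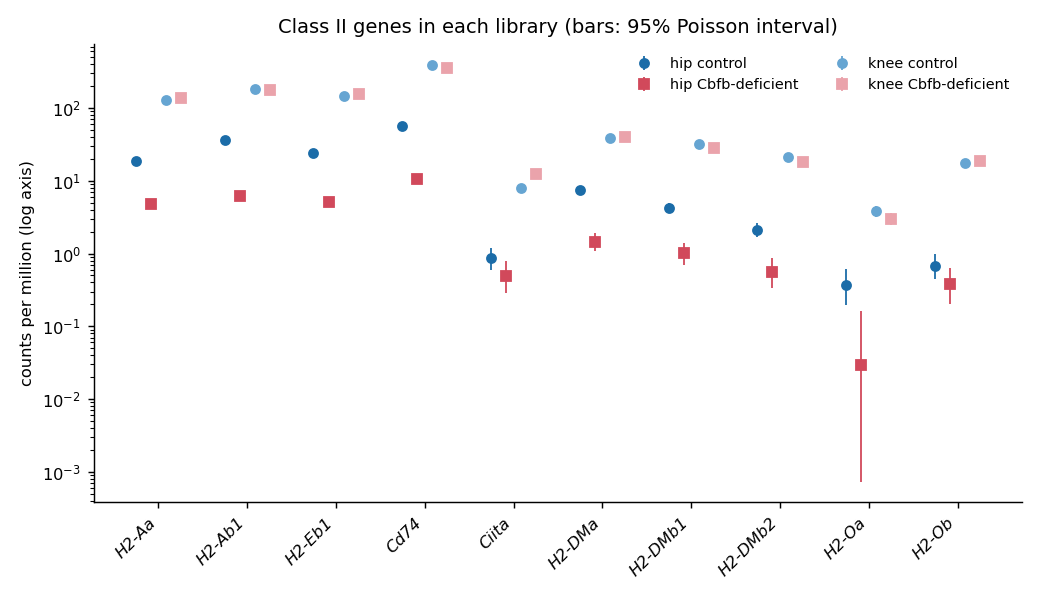
Counts per library total (CPM) of the 10 class II genes on a log axis in the hip control, the hip library labelled Cbfb-deficient and the 2 knee libraries, each point 1 library with its 95% Poisson interval. The red hip squares lie below the blue hip circles for every gene, from 36.4 to 6.27 CPM for H2-Ab1, while the knee symbols lie close together.

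The classical chains form the molecule that presents peptide, and their genes lie side by side, H2-Ab1 (ENSMUSG00000073421) at chr17:34263227-34269418, H2-Aa (ENSMUSG00000036594) at chr17:34282744-34287823 and H2-Eb1 (ENSMUSG00000060586) at chr17:34305867-34316674. H2-Ab1, the beta chain of I-A, had 1399 counts in the hip control and 217 in the other hip library, a log2 ratio of -2.49 (-2.70 to -2.28). H2-Aa, its alpha chain, had 714 and 164 counts, a log2 ratio of -1.92 (-2.18 to -1.68). H2-Eb1, the beta chain of I-E, had 925 and 179 counts, a log2 ratio of -2.17 (-2.41 to -1.94). These 3 chains were thus 3.79- to 5.61-fold lower in that library than in the hip control, and the intervals of H2-Ab1 and H2-Aa did not overlap by TMM but did once the trend was taken out. In the knee H2-Ab1 had 6209 and 6754 counts, H2-Aa 4434 and 5254, and H2-Eb1 5064 and 5997, in the control and in the library labelled Cbfb-deficient. Their knee log2 ratios were -0.22 (-0.27 to -0.17), -0.10 (-0.15 to -0.04) and -0.10 (-0.15 to -0.04). Those small knee values sit close to 0, and the sign of H2-Aa and H2-Eb1 turned positive under library size scaling and once the trend over length and GC was taken out.

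The proportion of H2-Aa to H2-Ab1 differed between libraries. H2-Aa had 51.0 counts per 100 of H2-Ab1 in the hip control (46.6 to 55.9) and 75.6 in the other hip library (61.3 to 93.0). In the knee the same ratio was 71.4 (68.7 to 74.2) in the control and 77.8 (75.02 to 80.7) in the library labelled Cbfb-deficient. The hip control was therefore the library with the least H2-Aa per H2-Ab1, and its interval did not meet those of the other 3 libraries. H2-Eb1 had 66.1 counts per 100 of H2-Ab1 in the hip control (60.8 to 71.9) and 82.5 in the other hip library (67.3 to 101.0), and these intervals overlapped. In the knee it had 81.6 (78.6 to 84.7) and 88.8 (85.7 to 91.9), which did not overlap.

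Cd74 (ENSMUSG00000024610), the invariant chain, was the most abundant member in every library. It had 2154 and 371 counts in the hip, a log2 ratio of -2.34 (-2.50 to -2.18). In the knee it had 13252 and 13577 counts, a log2 ratio of -0.30 (-0.34 to -0.27). Of all member counts Cd74 made up 37.1% and 34.8% in the hip pair, against 39.96% and 37.5% in the knee pair, in the control and in the library labelled Cbfb-deficient. For 100 counts of the 3 classical chains there were 70.9 of Cd74 in the hip control (67.1 to 74.95) and 66.3 in the other hip library (57.9 to 75.7). The hip intervals of this ratio overlapped. In the knee the ratio was 84.4 (82.4 to 86.3) in the control and 75.4 (73.7 to 77.1) in the library labelled Cbfb-deficient, and those intervals did not.

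The peptide editor H2-DM is built from the alpha chain H2-DMa and a beta chain from H2-DMb1 or H2-DMb2. H2-DMa (ENSMUSG00000037649) lies at chr17:34119693-34139101, H2-DMb2 (ENSMUSG00000037548) at chr17:34143229-34151553 and H2-DMb1 (ENSMUSG00000079547) at chr17:34153191-34160229. H2-DMa had 288 and 50 counts in the hip, a log2 ratio of -2.32 (-2.79 to -1.89), and 1337 and 1549 in the knee, a log2 ratio of -0.13 (-0.23 to -0.02). H2-DMb1 had 164 and 35 counts in the hip, a log2 ratio of -2.01 (-2.60 to -1.497), and 1115 and 1071 in the knee, a log2 ratio of -0.40 (-0.52 to -0.28). H2-DMb2 had 82 and 19 counts in the hip, a log2 ratio of -1.88 (-2.72 to -1.18), and 739 and 693 in the knee, a log2 ratio of -0.43 (-0.58 to -0.28). The 3 genes were thus called lower in the hip and none was called in the knee, where the sign of H2-DMa turned with the trend removed and under library size scaling. The canonical transcripts of H2-DMb1 and H2-DMb2 are 95.4% identical over 1116 aligned bases, and 27.2% of the 50-base stretches of H2-DMb1 occur in H2-DMb2, so how reads were divided between them is uncertain. In the reference annotation 11.8% of the exon bases of H2-DMa overlap Brd2 on the other strand. Summed, H2-DMb1 and H2-DMb2 had a log2 ratio of -1.98 in the hip and -0.41 in the knee. The 3 H2-DM genes stood at 17.6 counts per 100 of the classical chains in the hip control (16.003 to 19.3) and at 18.6 in the other hip library (14.9 to 22.9), and these intervals overlapped. In the knee this ratio was 20.3 (19.6 to 21.1) in the control and 18.4 (17.7 to 19.1) in the library labelled Cbfb-deficient, and those intervals did not.

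H2-O, the restrainer of H2-DM, is usually made mainly in B cells and some dendritic cells. H2-Oa (ENSMUSG00000024334) lies at chr17:34092379-34095234 and H2-Ob (ENSMUSG00000041538) at chr17:34238905-34245908. H2-Ob, its beta chain, had 26 and 13 counts in the hip, a log2 ratio of -0.78 (-1.89 to 0.21), and 611 and 722 in the knee, a log2 ratio of -0.10 (-0.26 to 0.06). H2-Oa, its alpha chain, had 14 counts in the hip control and 1 in the other hip library, a log2 ratio of -3.08 (-9.01 to -0.89), and 132 and 115 in the knee, a log2 ratio of -0.54 (-0.91 to -0.17). H2-Oa was called lower in the hip on those few counts, with a log2 ratio that became -1.47 with 5 counts added in place of 0.5, and H2-Ob was not called by TMM, though it was with the trend removed and under upper-quartile scaling. In the reference annotation 25.9% of the exon bases of H2-Oa overlap the gene BC051537 on the other strand, and whether counting used strand is not stated. The H2-O genes had 7.49 counts per 100 of the H2-DM genes in the hip control (5.29 to 10.3) and 13.5 in the other hip library (7.11 to 23.6). In the knee the ratio was 23.3 (21.5 to 25.2) and 25.3 (23.4 to 27.3), above the hip control, while the interval of the other hip library, which rests on 14 counts, met both.

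Ciita (ENSMUSG00000022504), the coactivator, was called in neither joint by TMM, though in the hip it was called lower under upper-quartile scaling, at -1.08. It had 33 and 17 counts in the hip, a log2 ratio of -0.74 (-1.70 to 0.13), and 271 and 479 in the knee, a log2 ratio of 0.48 (0.26 to 0.70). By TMM the hip interval included 0. For 100 counts of the classical chains there were 1.09 of Ciita in the hip control (0.75 to 1.53) and 3.04 in the other hip library (1.76 to 4.90). In the knee this ratio was 1.73 (1.52 to 1.95) in the control and 2.66 (2.42 to 2.91) in the library labelled Cbfb-deficient. In both joints, then, the library labelled Cbfb-deficient held more Ciita per classical chain, with intervals of the raw ratio that did not overlap. Ciita is a longer transcript than the chains, and in the knee its log2 ratio was 0.20 (-0.014 to 0.42) once the trend was taken out, beside values from -0.0035 to 0.063 for the chains, and in the hip it was -0.85 (-1.81 to 0.012) beside -1.78 to -1.39. By that measure the interval of Ciita held the values of all 3 chains in both joints.

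**Figure D2:**
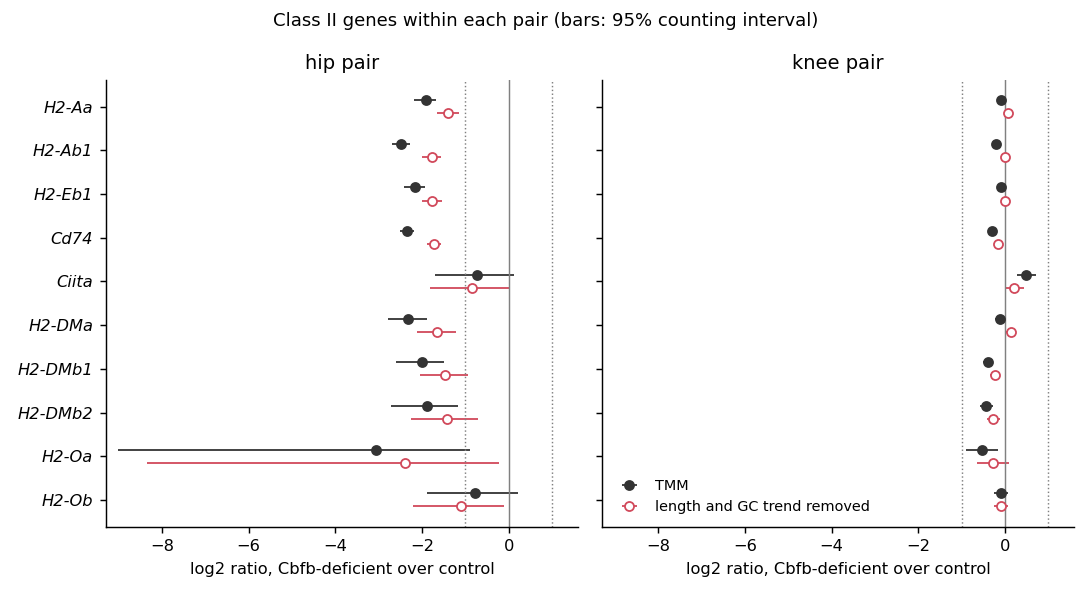
Log2 ratio of each class II gene, the library labelled Cbfb-deficient over its control, in the hip (left) and the knee (right), with 95% counting intervals, by TMM scaling (black) and after the length and GC trend was taken out (red, open), and dotted lines at 1 in either direction. In the hip 8 genes lie left of the lower dotted line by TMM and 9 with the trend removed, and in the knee all 10 lie between the lines.

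In the hip pair the log2 ratio of all genes varied with transcript length and GC content, from a median of 1.10 in the lowest of 20 GC bins to -0.57 in the highest, and from -0.16 in the shortest length bin to 0.79 in the longest. In the median the members are shorter than all genes, at 1418 bases beside 2883, and richer in GC, at 54.0% beside 50.1%. Ciita is longer, at 7483 bases, and H2-Ob poorer in GC, at 45.8%, and removing the trend lowered the hip log2 ratios of these 2 genes and raised those of the other 8. With this trend removed the hip log2 ratios of H2-Ab1, Cd74 and H2-Eb1 became -1.78, -1.72 and -1.77, those of H2-DMa and H2-Aa -1.65 and -1.39, and the median over the members -1.56. By this measure 9 of 10 members were called lower in the hip, H2-Ob among them at -1.09 (-2.20 to -0.11), where 15.5% of all genes were. Ciita was at -0.85 (-1.81 to 0.012). In the knee the median over the members became -0.047, with 0 members called where 14.6% of all genes were.

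Levels of different genes were compared per kilobase of canonical transcript. In all 4 libraries the order ran from Cd74 through H2-Ab1, H2-Aa, H2-Eb1, H2-DMa and H2-DMb1 to H2-DMb2, with H2-Oa, H2-Ob and Ciita below. In the knee control Cd74 stood at 270.3 CPM per kb, H2-Ab1 at 149.5, H2-Aa at 114.7 and H2-Eb1 at 87.1. In the hip control the same genes stood at 39.1, 30.0, 16.5 and 14.2 CPM per kb, and in the hip library labelled Cbfb-deficient at 7.50, 5.18, 4.204 and 3.05. The order kept its top while the levels differed between libraries. Ciita was lowest in 3 libraries, at 0.115 CPM per kb in the hip control, 1.06 in the knee control and 1.67 in the other knee library. Neighbours in this order did not overlap in their counting intervals in the knee, and in the hip control H2-Oa and H2-Ob alone did. In the hip library labelled Cbfb-deficient 6 of 9 neighbouring pairs overlapped, H2-Ab1 and H2-Aa among them. With the length of merged exons instead, H2-Eb1 stood above H2-Aa and H2-DMb1 above H2-DMa in all 4 libraries.

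Every member was higher in the knee control than in the hip control in CPM, from 4.98-fold for H2-Ab1 to 26.4-fold for H2-Ob. The joints also differ in age, Cre line, tissue (by the paper the knee samples held bone as well as cartilage), kind of control and the set of gene identifiers counted, and these cannot be told apart. Pan-leukocyte genes, summed over 10 including Ptprc, stood at 133.4 CPM in the hip control, 105.2 in the other hip library, 3024 in the knee control and 3337 in the other knee library.

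Across the class II stretch of chromosome 17 the members lie among genes of other roles. The further class II chains H2-Ea and H2-Eb2 lie there too and were counted with the other genes. Of the 8 members there, 7 were called lower in the hip, where 16.3% of all genes were, with a median log2 ratio of -2.09. The stretch was described after these values had been seen. Of the 6 other genes that passed the count limit in the hip 1 was called lower, Psmb9 at -1.14 (-1.49 to -0.81), a subunit of the immunoproteasome that cuts peptides for class I. Psmb8, another such subunit, was at -0.72 (-1.04 to -0.41). The class I peptide transporter genes Tap1 and Tap2 were at -0.0052 (-0.27 to 0.26) and -0.18 (-0.35 to -0.01). Brd2, a bromodomain gene next to H2-DMa, was at 0.70. The sixth was H2-Ea, at -0.90 (-3.61 to 1.11) on 10 counts. The median over these 6 genes was -0.45. In the knee H2-Eb2 passed the count limit in place of H2-Ea, the median over the 6 was -0.16 and none was called.

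**Figure D3:**
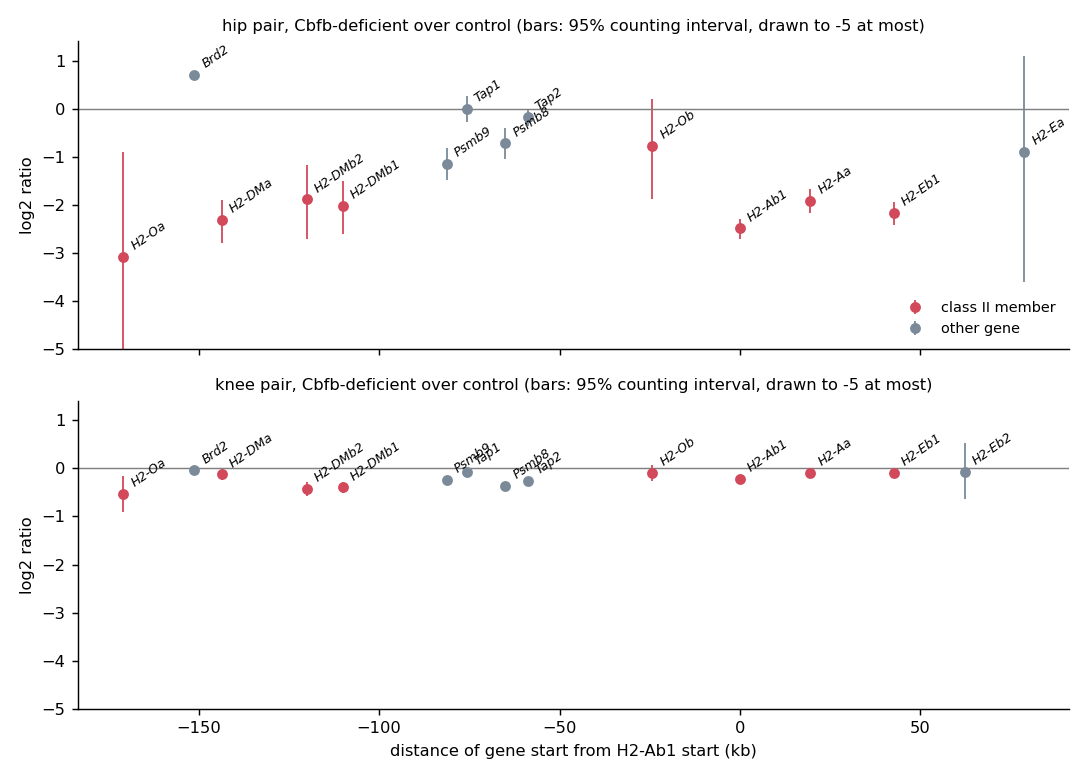
Log2 ratio of the genes of the class II stretch, the library labelled Cbfb-deficient over its control, against the distance of each gene's start from that of H2-Ab1 in kilobases, for the hip (top) and the knee (bottom), with 95% counting intervals and members in red. In the hip 7 of 8 members lie below -1, while Tap1, Tap2, Psmb8 and Brd2 lie above it, and in the knee all genes lie between -0.54 and 0.

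Class I presentation is the parallel pathway used by nearly all cells. Of 10 genes 2 were called lower and 0 higher in the hip, Psmb9 and Psmb10, the latter at -1.05, with a median of -0.57. Once the trend over length and GC was taken out 1 was called lower, B2m at -1.02. By TMM B2m, the light chain of class I, was at -0.64, Tapbp, which loads peptide on class I, at -0.77 and the heavy chains H2-D1 and H2-K1 at -0.49 and 0.11. For 100 counts of H2-K1 and H2-D1 there were 23.4 of the 3 classical class II chains in the hip control (22.5 to 24.3) and 5.87 in the other hip library (5.38 to 6.39). In the knee there were 24.9 (24.4 to 25.3) in the control and 26.6 (26.2 to 27.1) in the library labelled Cbfb-deficient. This ratio does not depend on scaling, and by it the hip library labelled Cbfb-deficient stood far below the other 3. In the knee 0 of 10 class I genes were called, with a median of -0.27.

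The factor genes that act with Ciita were counted as a list. Of 7 genes for RFX, CREB and NF-Y subunits 0 were called lower and 2 higher in the hip, where 16.3% and 20.2% of all genes were, with a median of 0.28. Rfx5, the DNA-binding RFX subunit, had 181 and 358 counts and was higher by 1.18 (0.92 to 1.45), and Creb1 was higher by 1.72 (1.51 to 1.92). With the length and GC trend removed Creb1 was at 0.20 and Rfx5 at 0.98, and 0 of the 7 were called. In the knee Rfx5 was at 0.83 and 0 of 7 were called. Rfxank, another RFX subunit, was at -0.77 in the hip and 0.50 in the knee.

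Of the interferon gamma axis 8 of 9 genes could be compared in the hip, with 2 called lower, 1 called higher and a median of -0.21. The cytokine gene Ifng had 0 counts in both hip libraries, which allows up to 0.0780 and 0.0867 CPM, and 2 and 4 counts in the knee. Socs1, an inhibitor of this pathway that is itself induced by it, had 112 and 7 counts in the hip, a log2 ratio of -3.71 (-5.15 to -2.71), and 581 and 379 in the knee, at -0.96 (-1.15 to -0.77). The receptor chain Ifngr2 was lower by 1.16 on the log2 scale in the hip, while the kinase gene Jak2 was higher by 1.46. Irf1, a target of the pathway, was at -0.83 in the hip and -0.013 in the knee. In the knee 0 of 8 genes of the axis were called by TMM, and with the trend removed 1 was, Socs1 at -1.06 (-1.25 to -0.87).

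Endosomal processing genes, which prepare the peptides and cut the invariant chain, had medians below 0 in both joints. In the hip 1 of 7 was called lower, the protease gene Lgmn at -1.004 from 2682 and 1166 counts, and the median was -0.45, and 0 were called with the trend removed. The thiol reductase gene Ifi30 was at -0.94 and the cathepsin gene Ctsh at -0.90. Ctss, the cathepsin that makes the last cuts in the invariant chain, was at 0.58 in the hip and -0.26 in the knee. In the knee 0 of 7 were called, all 7 intervals lay below 0, and the median was -0.39. Of 6 genes for class II turnover and costimulation 1 was called lower in the hip, the dendritic and B cell activation marker Cd83 at -1.56 from 62 and 18 counts, and 0 in the knee. Marchf8, an enzyme that tags class II for removal, was at 0.70 in the hip and 0.13 in the knee.

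B cells, dendritic cells and macrophages usually make class II, and their markers were counted in the same libraries. Of 12 B cell genes 9 were called lower and 0 higher, with a median of -1.58, and their summed level was 21.1 CPM in the hip control and 6.25 in the other hip library. Cd79a and Cd79b, the signalling chains of the B cell receptor, had 253 and 48, and 163 and 31 counts, with log2 ratios of -2.19 and -2.18. Pax5, the B cell identity factor, was at -1.31. All 4 early B cell genes that could be compared were called lower, with a median of -2.72, Vpreb3 at -2.53, Igll1 at -2.91, Rag1 at -3.50 and Dntt at -1.95, on at most 36 counts each. In the library labelled Cbfb-deficient they had 5, 2, 1 and 3 counts, so each passed the count limit only through the control. The limit favours a lower call for such genes, so nothing is drawn from their number. No gene of these 2 lists was without counts in any of the 4 libraries. The summed level of erythroid genes, a sign of blood or marrow, went from 3748 CPM in the hip control to 1312 in the other hip library over 5 genes, and from 54476 to 25773 in the knee. Hba-a1 alone made up most of each sum, with 3361 and 1054 CPM in the hip pair, and 34758 and 15915 CPM for the knee. Of these 5 genes 2 were called lower in the hip, Hba-a1 at -1.63 and Slc4a1 at -1.14, and 2 in the knee, Hba-a1 at -1.31 and Hba-a2 at -1.35, near-identical copies whose split is uncertain. With the trend removed Hba-a1 was at -1.02 and Slc4a1 at -0.96 in the hip, the latter not called, and in the knee Hba-a2 was at -1.03 and Hba-a1 at -0.99, the latter not called. Of the B cell genes, Fcer2a and Cr2 had hip log2 ratios above 0, at 0.97 and 1.14, with intervals that included 0. Hba-a2 was at -0.38 in the hip and at 0.23 there with the trend removed. Most B cell genes and Hba-a1 thus moved with the members in the hip, and their part in the result was not tested.

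Dendritic cell genes did not move one way in the hip. Of 11 compared 4 were called lower and 1 higher, with a median of -0.94, and their summed level was 14.6 CPM in the control and 15.8 in the other hip library. The genes called lower were Flt3, a growth factor receptor of these cells, at -1.01 from 49 and 21 counts, Siglech at -1.07, Batf3 at -2.42 and Xcr1 at -2.77. Clec9a was called higher at 1.88, from 9 and 30 counts, Zbtb46 was at 0.52 and Clec10a at 0.56. Of 12 macrophage genes 5 were called lower and 3 higher, with a median of -0.84 and summed levels of 179.7 and 121.4 CPM. Adgre1, which encodes F4/80, had 210 and 48 counts, a log2 ratio of -1.92 (-2.42 to -1.47), and C1qa and C1qb, chains of complement C1q, were at -1.35 and -1.498, with C1qc at -1.11 and Csf1r at -1.14. Lyve1, a marker of some resident macrophages and of lymphatic vessels, was higher by 1.28, Mertk by 1.17 and Cd163 by 1.14. Once the trend was removed 4 macrophage genes were called lower, Adgre1, Csf1r, C1qb and Timd4, and 0 higher. Of 9 T cell genes 3 were called lower, Cd3e at -1.57 from 100 and 29 counts, Cd2 at -1.20 and Cd4 at -2.49, and 1 higher, Cd3d at 1.06. With the trend removed 2 were called lower, Cd3e and Cd4, and 0 higher, with Cd2 at -0.89 and Cd3d at 0.82. The medians of the plasma cell, monocyte and neutrophil genes were -0.63, -0.26 and -0.043.

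The pan-leukocyte list moved much less than the members. Of 10 genes 1 was called lower and 1 higher in the hip, Laptm5 at -1.02 and Ptprc, the common leukocyte phosphatase CD45, at 1.24 from 137 and 282 counts, and the median was -0.19. Summed, the list had a log2 ratio of -0.30 (-0.36 to -0.24). With the hip libraries scaled to this sum, the summed members had a log2 ratio of -1.95, and 8 of 10 were still called lower, where 11.6% of all genes were. Once the trend over length and GC was taken out Ptprc was at 0.33 and Laptm5 at -0.54, and Cd53 alone was called, lower at -1.13.

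In the knee some B cell genes were called lower while no class II member was. Of 12 B cell genes 3 were called lower and 0 higher, with a median of -0.54 and summed levels of 538.8 CPM in the control and 327.9 in the library labelled Cbfb-deficient. Cd79a had 4888 and 2584 counts, a log2 ratio of -1.26 (-1.33 to -1.19), Cd79b was at -1.07 and Ly6d at -1.16. Once the trend was taken out 2 were called, Cd79a at -1.15 and Pax5 at -1.10, while Cd79b stood at -0.91 and Ly6d at -0.80. Vpreb3, a gene of developing B cells, had 2362 and 932, at -1.68. Macrophage genes had 0 of 12 called and a median of 0.016, and Adgre1 was at 0.29. For 100 counts of Cd79a and Cd79b there were 179.5 of the 3 classical chains in the knee control (174.8 to 184.3) and 367.1 in the library labelled Cbfb-deficient (355.6 to 378.9). In the hip the same ratio was 730.3 (658.9 to 811.0) and 708.9 (559.3 to 908.9), and these intervals overlapped. The proportion of class II to these B cell genes thus did not differ beyond counting error in the hip, and in the knee it was higher in the library labelled Cbfb-deficient. Summed over all 12 B cell genes the log2 ratio was -1.71 in the hip and -0.90 in the knee, beside -2.24 and -0.14 for the classical chains. The hip overlap thus holds for Cd79a and Cd79b and was not shown for the list. For 100 counts of C1qa, C1qb and C1qc there were 77.0 of the classical chains in the hip control (73.4 to 80.7) and 40.6 in the other hip library (36.7 to 44.8), against 115.9 and 149.2 in the knee. In the hip, class II was thus lower by more than these C1q genes, while Adgre1, at -1.92, was as low as H2-Aa. With the trend removed Adgre1 was at -2.09, beside a median of -1.56 over the members. By TMM 5 of 12 macrophage genes were called lower and 3 higher in the hip, so the comparison depends on the genes chosen.

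**Figure D4:**
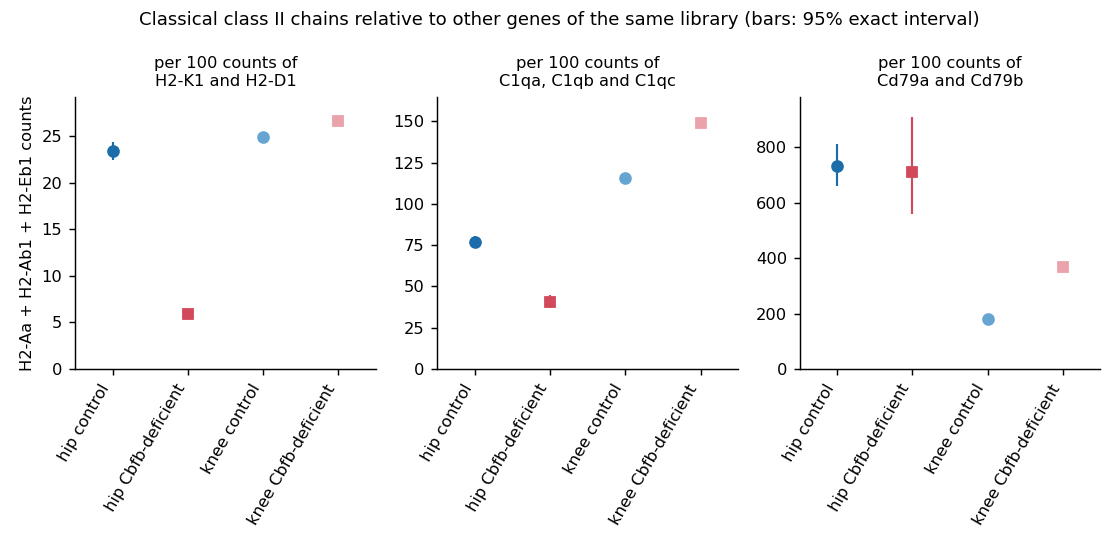
Summed counts of H2-Aa, H2-Ab1 and H2-Eb1 per 100 counts of H2-K1 and H2-D1 (left), of C1qa, C1qb and C1qc (middle) and of Cd79a and Cd79b (right) in each of the 4 libraries, with 95% exact intervals and each axis from 0. The hip library labelled Cbfb-deficient is lowest per class I heavy chain, at 5.87, and the hip libraries overlap per Cd79 chain.

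**Figure D5:**
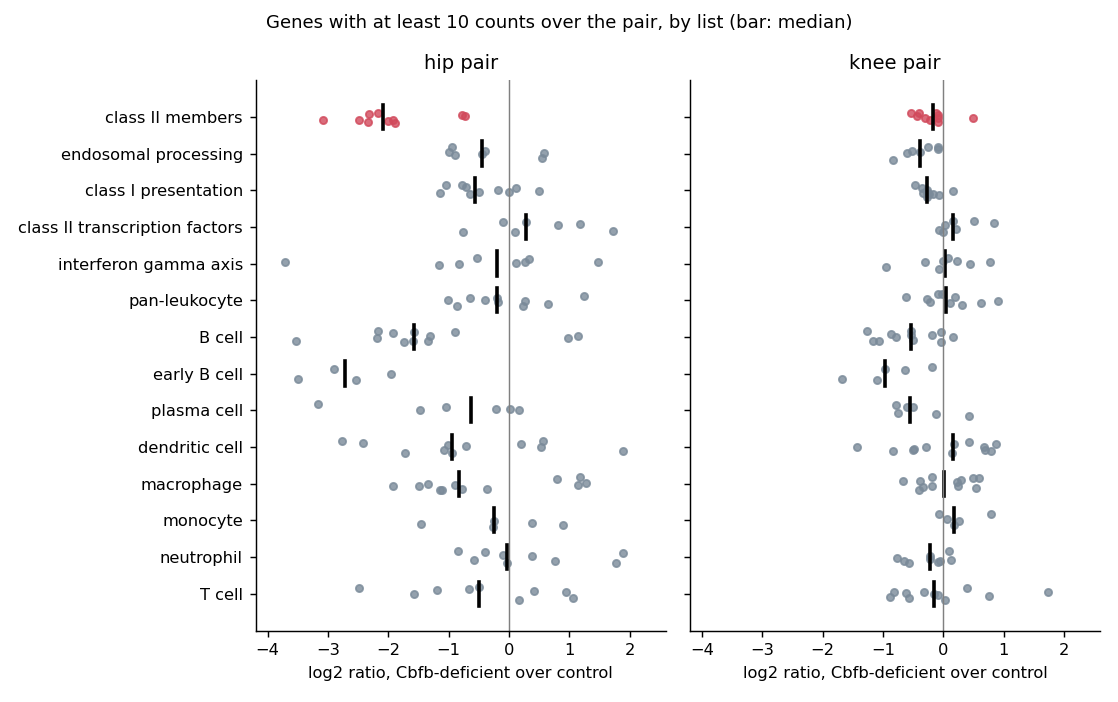
Log2 ratio, the library labelled Cbfb-deficient over its control, of each gene with at least 10 counts over the pair, by gene list, in the hip (left) and the knee (right), with a bar at each list's median. In the hip the class II members have a median of -2.09, the B cell genes of -1.58 and the pan-leukocyte genes of -0.19, and in the knee the members have a median of -0.17.

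The 10 genes whose pattern over the 4 libraries was nearest to the median of H2-Aa, H2-Ab1, H2-Eb1 and Cd74 were Ecrg4, Tspyl3, Mcub, Cdc25c, Exoc3l4, Hoxc9, Rcor2, Lrrc75b, Cit and Rtn4r, out of 13590 genes ranked. The distance was taken over 3 values, the hip log2 ratio, the knee log2 ratio and the log2 ratio of knee to hip control. Ecrg4, the nearest, had 896 and 164 counts in the hip, and in the knee 5038 and 5671. None of the 10 is in any of the lists used here. Of the members, H2-Eb1 had 1 gene that is no member nearer to that median than itself, Ciita had 516 and H2-Ob 2166.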

How the data were processed

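Gene counts of 4 poly-A libraries were analysed, 1 per condition and joint. The authors deposited raw read counts per Ensembl gene, without normalization. The submitters' processing notes name FastQC 0.11.3, STAR 2.0 and mm10, while the paper's methods give GRCm39, so coordinates here are those of RefSeq GRCm38.p6. The hip counts end in HTSeq summary lines, which held 25.8% and 24.6% of the listed reads and were left out. The program behind the knee counts is not given in the sources used here. The extraction notes name osteoblasts, the tissue labels articular cartilage.

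Identifiers were matched to GENCODE symbols at rates of 91.8% (hip) and 92.6% (knee). Counts were scaled within each pair by TMM (edgeR 4.0.16 in R 4.3.3) and log2 ratios taken with 0.5 added. Intervals are 95% Clopper-Pearson for ratios and Poisson for levels, and cover counting error only. A call needed a log2 ratio reaching 1 in either direction, an interval that left out 0, and 10 or more counts summed over both libraries. The trend over length and GC was removed by medians of 20 bins of each, in 2 rounds. Condition was also tested over all 4 libraries with joint as a block, by edgeR's quasi-likelihood test and by DESeq2 1.42.0, on genes with 10 or more counts in each pair and with Benjamini-Hochberg adjustment. That test was added after the data were seen. DESeq2 also gave alternative size factors. Other steps used Python 3.11.15, pandas 2.3.3 and scipy 1.17.1.

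The members, lists and tests were chosen with earlier results of these data known. Named were all members, at most 4 genes per list and joint with the largest ratios among those with at least 100 counts, 5 defining markers (Ptprc, Flt3, Adgre1, Cd3e and 1 that is not reported here), Cbfb and the 10 genes of nearest pattern. H2-K1, H2-D1 in the hip, B2m, Tap1, Tap2, Brd2, C1qc, Ifng, the 4 early B cell genes, Fcer2a, Cr2, Siglech, Batf3, Xcr1, Clec9a, Csf1r, Mertk, Cd163, Timd4, Cd2, Cd4, Cd3d, Cd83, Cd53, Pax5 in the knee and the genes of the chromosome 17 stretch were named after their values were seen. Other scalings, added counts, filters and limits were tried as alternatives.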

Additional observations from a re-analysis of the deposited data

Results flagged for a closer look

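Some genes named beside the members had log2 ratios of opposite sign in the 2 joints, each with a counting interval that excluded 0 by TMM. The difference between joints was not tested, since with 1 library per condition and joint it leaves no residual degrees of freedom. Adgre1 was at -1.92 in the hip and 0.29 in the knee, Rfxank at -0.77 and 0.50, and Ctss at 0.58 and -0.26. Clec10a was at 0.56 and -0.48, Cbfb at 0.41 and -0.071, and H2-K1 at 0.11 and -0.18. Xcr1 was at -2.77 and 0.87, Csf1r at -1.14 and 0.22, Mertk at 1.17 and -0.39, and Cd3d at 1.06 and -0.58. Timd4 was at -0.90 and 0.59. Ciita, at -0.74 and 0.48, had a hip interval that included 0 and is not among them. With the trend over length and GC removed, Adgre1, Rfxank, Clec10a, Mertk, Cd3d and Timd4 still had opposite signs with intervals that excluded 0. In the other 5 genes this was lost, with knee values of 0.056 for Ctss, -0.0023 for Cbfb, -0.0020 for H2-K1, 0.81 (-0.020 to 1.74) for Xcr1 and -0.050 for Csf1r, and a hip value of -0.28 for Cbfb.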

How the results depend on the processing

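The number of members called lower in the hip was 8 and lay between 7 and 10 over the alternatives, with 0 called higher in all of them. The low value came with at least 10 counts asked of each library, which removed H2-Oa (9.5% of all genes called lower), and the high one with upper-quartile scaling (24%). The summed hip log2 ratio of -2.25 became -2.59 with upper-quartile scaling, -1.95 when scaled by the pan-leukocyte list and -1.97 over the 6 members other than H2-Aa, H2-Ab1, H2-Eb1 and Cd74. The summed knee log2 ratio of -0.21 became -0.031 by library size, -0.33 by upper quartile and -0.17 by the pan-leukocyte list. In the knee 1 member, H2-Oa, was called lower with a limit of 0.5 on the log2 ratio, where 15.9% of all genes were, and with the counting interval alone 8 were called lower and 1 higher. Beyond scaling and the limit themselves, the cause was not tested. Other scalings moved the median of all genes by -0.35 (hip, upper quartile), 0.30 (hip, pan-leukocyte), 0.18 (knee, library size) and -0.12 (knee, upper quartile). Of the hip calls over all genes 55.4% were higher by TMM, 36.8% by upper quartile, 69.7% by the pan-leukocyte list and 68.4% with 10 counts in each library. Of the knee calls 56.9% were higher by TMM, 71.3% by library size and 46.5% by upper quartile. The hip log2 ratio of every member kept its sign under each alternative, and the summed H2-DMb1 and H2-DMb2 counts and the merged exon lengths were added after seeing the data. With joint as the replicate block 0 members passed the adjusted p in either direction by edgeR and 0 by DESeq2. With 5 counts added H2-Oa stood at -1.47 in the hip against -3.08. Low counts limit Ciita, H2-Oa and H2-Ob in the hip.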

Other observations

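The other class II chains were near the floor. H2-Ea, the alpha chain of I-E, had 7 counts in the hip control, 3 in the hip library labelled Cbfb-deficient and 0 in both knee libraries. Those 0 counts allow up to 0.0876 and 0.0785 CPM, beside 5064 and 5997 counts of its partner chain H2-Eb1. H2-Eb2 had 7 and 1 counts in the hip, and in the knee 48 and 58.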
